A study of Mus musculus with 9 samples.

Results

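The genes described here are 38 mouse genes of the p53 pathway and the DNA damage response, out of 21887 protein-coding genes on the main chromosomes, and the question put to the data was where intervals of KDM6A chromatin lay around them. They were chosen by name, with earlier results of these data known, and no measured value enters the rule. They comprise p53 itself and its regulators (3 genes), damage sensors and checkpoint kinases (8), repair genes (8), p53 targets that act in the cell cycle and in stress (10), and p53 targets that act in cell death (9). A gene was counted as having an interval when an interval of a library's list overlapped the RefSeq span of the gene plus 5 kb on each side by at least 1 bp.

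The samples were Sv129 mouse embryonic stem cells grown on gelatin with leukemia inhibitory factor. KDM6A chromatin immunoprecipitation with sequencing (ChIP-seq) was made from 2 samples of cells given 0.12 µM MTX for 24 h, whose genotype field reads "folate deficiency", and from 2 control samples, whose genotype field reads "WT". An antibody to IgG, which measures nonspecific background, was used on 1 sample of MTX cells, which carries the same number in its title as MTX 1, and on no control cells. The other 4 of the 9 samples were inputs and have no list of their own. The labels do not say whether samples of a group were cultured separately, so p-values measure only the spread between these samples, which may be technical. The interval lists hold no expression values, so the labelled cell type was not checked against markers.

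The protein p53, encoded by Trp53, is a transcription factor that is stabilised when DNA is damaged or nucleotides run short. It binds pairs of a 10-letter DNA element, here called the p53 decamer motif, and activates genes that stop the cell cycle, assist repair or kill the cell. The kinases ATM and ATR sense breaks and stalled replication forks and act upstream of p53, and MDM2 and MDM4 hold p53 in check. KDM6A, also called UTX, is a histone demethylase that removes methyl groups from lysine 27 of histone H3, a mark of silenced chromatin, and is found at enhancers and promoters.

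The lists held 24177 intervals in MTX 1, 28976 in MTX 2, 44838 in control 1, 21228 in control 2 and 22843 in IgG. Each interval carries immunoprecipitated reads, background reads, a fold (their ratio times a constant of the list, from 1.04 to 1.32) and an adjusted p-value, all as deposited. The reads in intervals summed to between 3251202 and 4192029 per library. Reads given for a gene are summed over whole intervals, also where these reach past its window. Control 1 stands apart from the rest: it has the most intervals, the fewest reads in its median interval (79, against 114 to 130 in the other libraries) and the highest median fold (1.62, against 1.39 to 1.499). Intervals with the same coordinates in MTX 1 and IgG had the same background count in 52 of 52 cases, against at most 3 in any other pair of libraries, so these libraries share their background reads.

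Intervals were found at 15 of the 38 genes in MTX 1 and at 15 in MTX 2, against 27 in control 1 and 13 in control 2, and at 19 in IgG. Of the 21849 other protein-coding genes, 33.4% had one in MTX 1, 30.8% in MTX 2, 47.1% in control 1, 26.1% in control 2 and 27.5% in IgG. As shares of the list these are 39.5% in both MTX libraries, 71.1% in control 1, 34.2% in control 2 and 50% in IgG. Longer genes have more intervals, so each member was also set beside all other protein-coding genes whose span was at most 25% longer than its own, or shorter by the same factor. Those genes of like length had an interval in 33.3%, 30.1%, 48.3%, 25.2% and 26.2% of cases, in the order of libraries just given. The excess over genes of like length was therefore between 6.16 and 22.7 percentage points in the KDM6A libraries and 23.8 points in IgG. Which library had the larger excess depended on the window and threshold: within 1 kb of a gene end it was 11.8 points in MTX 1 and 3.72 in MTX 2, against 15.3 in control 1 and 2.76 in control 2, and 10.2 in IgG. For the better 50% of each list it was 7.33 in MTX 1 and 3.88 in MTX 2, against 19.7 in control 1 and 7.76 in control 2, and 10.2 in IgG. With only intervals of adjusted p under 0.05 and fold above 1 it was 2.55 in MTX 1 and 8.83 in MTX 2. In the same setting it was 24.1 in control 1, 10.9 in control 2 and 23.8 in IgG. With lists of equal length (the best 21228 intervals of each) it was -0.624 in MTX 1 and 12.2 in MTX 2. Control 1 then had 18.5, control 2 9.04 and IgG 26.2, so the excess in MTX 1 was absent in that setting.

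**Figure D1:**
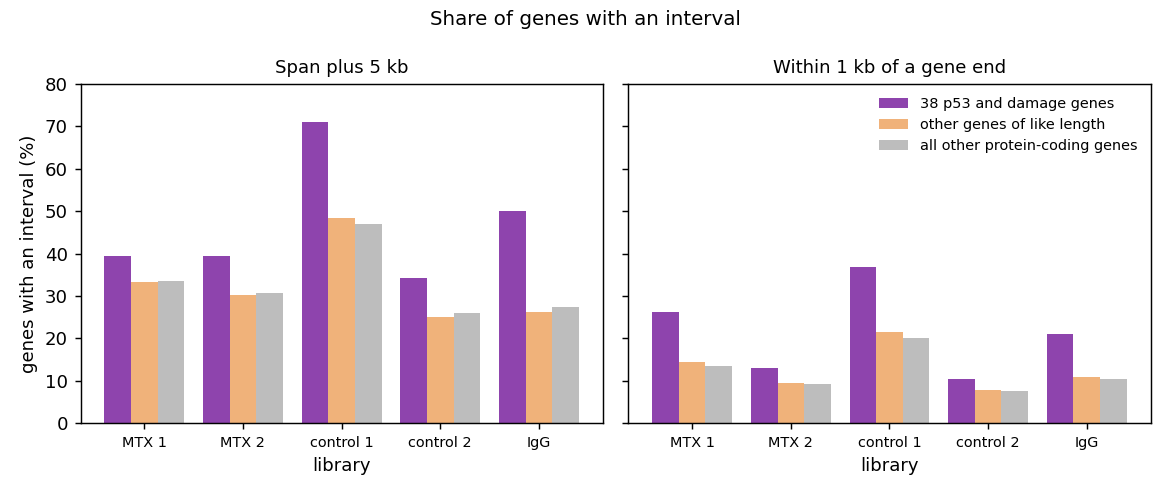
Percentage of genes with an interval in each library, for the 38 p53 and damage genes, for other protein-coding genes of like length and for all other protein-coding genes, with the span plus 5 kb in the left panel and 1 kb around either gene end in the right panel. In IgG 50% of the 38 genes had an interval in the wider window, against 26.2% of genes of like length.

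Members with intervals in more libraries were longer genes. No KDM6A interval lay at 9 of the 38 genes, with a median span of 9937 bp. At 8 genes an interval was present in 1 KDM6A library, at 7 in 2, at 8 in 3 and at 6 in all 4, and the median span of that last group was 60498 bp. For 0, 1, 2 and 3 KDM6A libraries the shares of the list were 23.7%, 21.1%, 18.4% and 21.1%. Among all other protein-coding genes they were 38.4%, 22.9%, 14.8% and 10.7%, without regard to length. Genes with an interval in all 4 KDM6A libraries made up 15.8% of the list, against 13.2% of all other protein-coding genes and 11.2% of those of like length. Those 6 genes were the checkpoint genes Atm, Atr and Rad50, the repair genes Brca1 and Brca2, and the p53 target Rrm2b. All except Brca1 also had an IgG interval, so 5 genes had one in every list, against 10.9% of other genes. Rrm2b is in both counts through a control 2 interval that reaches only 249 bp into its window. Without the flank the counts were 5 and 4 genes. None of the 11 members with a span under 10 kb and none of the 11 between 10 and 30 kb had an interval in all 4 KDM6A libraries, against 2.17% and 5.59% of other genes of those lengths, so counts of 0 are near the background.

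**Figure D2:**
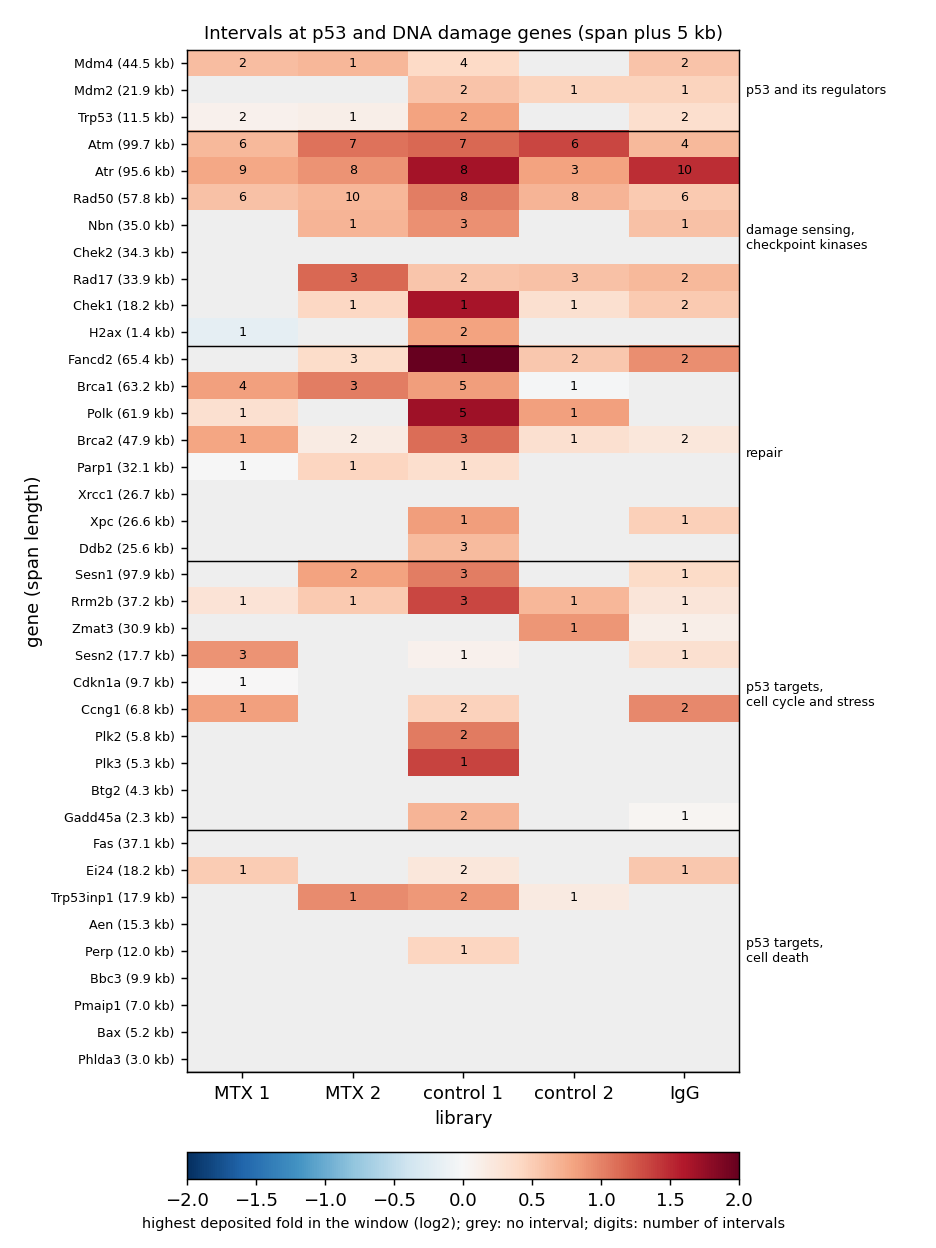
The 38 genes in rows, grouped by role and ordered by span length, and the 5 libraries in columns; colour gives the highest deposited fold in the span plus 5 kb on a log2 scale, digits give the number of intervals, and grey marks no interval. Atm, Atr and Rad50 carry between 3 and 10 intervals in every library, and most genes of the cell death group carry none.

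Among p53 and its regulators, Trp53 carried weak intervals that had no more reads than background at its start in the KDM6A libraries. Its RefSeq span is chr11:69580348-69591873 on the plus strand (mm10). Whole intervals that touch its window held 250 immunoprecipitated and 287 background reads in 2 intervals of MTX 1, and 104 and 108 in 1 of MTX 2. Control 1 had 264 and 326 reads in 2, control 2 had no interval, and IgG had 273 and 230 reads in 2. Scaled to the lists' depths, these gave read ratios of 0.935 in MTX 1, 1.08 in MTX 2, 1.07 in control 1 and 1.23 in IgG. The IgG ratio was above all 3 KDM6A ratios, but most IgG reads (167 and 137) came from an interval at chr11:69596401-69601200. That interval overlaps Atp1b2 and reaches past the end of the window at 69596873. The IgG interval at the start end of Trp53 had 106 and 93 reads and a fold of 1.18. The interval over the start had a deposited fold of 0.866 in MTX 1 (95% interval 0.694 to 1.08, exact and for counting error only) and 0.948 in control 1 (0.785 to 1.14), both with a deposited adjusted p of 1 and both overlapping an IgG interval. These start intervals also overlap Wrap53, the gene next to Trp53. At the other end of Trp53 the fold was 1.08 in MTX 2 (0.816 to 1.43) and 1.74 in control 1 (1.19 to 2.55).

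Mdm2, the ubiquitin ligase that marks p53 for degradation and is itself a p53 target, was the 1 member whose intervals lay in both control libraries and in no MTX library. Of all other protein-coding genes 2.18% had that pattern. The reverse, intervals in both MTX libraries and no control library, was found at 1.26% of other genes and at none of the 38. No interval lay at Mdm2 in MTX 1 or MTX 2. Control 1 had 284 immunoprecipitated and 257 background reads in 2 intervals, with folds of 1.49 (1.14 to 1.95) and 1.44 (1.14 to 1.81), control 2 had 123 and 94 reads in 1 interval with a fold of 1.36 (1.03 to 1.80), and IgG had 133 and 101 reads in 1 interval with a fold of 1.37 (1.05 to 1.79). The control 2 interval and the second control 1 interval overlap in the body of the gene, while the IgG interval covers its start. A missing interval is no count of 0 reads, so the difference in reads between MTX and control cells at Mdm2 was not tested. Mdm4, which binds and inhibits p53, had intervals in both MTX libraries and in control 1, with highest folds of 1.53, 1.58 and 1.32, none in control 2, and 1.48 in IgG.

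Promoter sequences were available from RefSeq (GRCm38.p6) for 27 of the 38 genes, as 34 windows of 250 bases before to 50 after a start. The sequences shown are those of p53 and of 3 of its targets, since these windows hold a match to the p53 decamer motif and lie under an interval of at least 1 library. They are printed 5′ to 3′ on the strand of the gene, and capitals mark each motif match.
Trp53, chr11:69580109-69580408, plus strand: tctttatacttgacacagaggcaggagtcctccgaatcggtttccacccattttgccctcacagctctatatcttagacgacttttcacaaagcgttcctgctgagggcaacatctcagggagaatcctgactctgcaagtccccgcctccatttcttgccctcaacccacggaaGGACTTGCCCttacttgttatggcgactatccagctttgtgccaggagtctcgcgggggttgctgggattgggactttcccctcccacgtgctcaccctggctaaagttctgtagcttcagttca
Cdkn1a, chr17:29090729-29091028, plus strand, the upstream start: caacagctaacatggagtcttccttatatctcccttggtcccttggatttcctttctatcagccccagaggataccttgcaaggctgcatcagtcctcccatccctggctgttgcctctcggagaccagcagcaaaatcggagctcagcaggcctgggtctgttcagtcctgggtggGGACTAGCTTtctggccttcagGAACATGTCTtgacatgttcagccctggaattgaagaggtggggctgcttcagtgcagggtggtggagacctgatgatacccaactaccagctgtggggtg
Mdm2, chr10:117710709-117711008, minus strand: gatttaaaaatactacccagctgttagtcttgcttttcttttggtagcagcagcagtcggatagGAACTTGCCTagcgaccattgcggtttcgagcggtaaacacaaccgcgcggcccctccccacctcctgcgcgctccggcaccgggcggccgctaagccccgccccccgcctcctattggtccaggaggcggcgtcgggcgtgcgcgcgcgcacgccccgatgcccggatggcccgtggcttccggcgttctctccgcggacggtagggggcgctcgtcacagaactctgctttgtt
Ccng1, chr11:40755237-40755536, minus strand: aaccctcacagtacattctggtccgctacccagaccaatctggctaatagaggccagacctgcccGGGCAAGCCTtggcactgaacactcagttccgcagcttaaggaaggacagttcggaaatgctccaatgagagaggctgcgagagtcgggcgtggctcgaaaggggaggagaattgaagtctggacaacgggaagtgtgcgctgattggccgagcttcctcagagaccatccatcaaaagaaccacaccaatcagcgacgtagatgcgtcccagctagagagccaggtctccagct
The match in Trp53 begins 75 bases before the start, that in Mdm2 186 and that in Ccng1 185. The Cdkn1a window holds 2 matches, GGACTAGCTT from 73 and GAACATGTCT from 51 bases before the start, separated by a spacer of 12 bases. Only full matches to the motif are marked, and elements with a mismatch, also directly beside a match, are not. Binding of p53 was not measured, so this pair need not be the element that p53 binds.

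The motif is its own reverse complement in form, so a search of either strand finds the same matches. A match was present in 11 of the 34 member promoters, or 32.4%, and in 7.33% of 21229 other promoters of the same length. A pair of matches with a spacer of 0 to 13 bases was present in 1 member promoter, that of Cdkn1a, and in 9 others, or 0.0424%. Known p53 targets were put on the list by name, so this share is no result of the ChIP data. Of the 10 genes with a match, 4 had no interval over any of their promoters in any library.

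In each library most member promoters lay under no interval, and so did most other promoters. An interval lay over 4 of the 34 windows in MTX 1 (11.8%, windows of 3 genes) and 1 in MTX 2 (2.94%). It lay over 7 in control 1 (20.6%), none in control 2, and 2 in IgG (5.88%). For other promoters the shares were 7.25% in MTX 1, 2.95% in MTX 2, 9.97% in control 1, 2.39% in control 2 and 5.08% in IgG. The member shares rest on at most 7 windows a library, and the 4 windows of MTX 1 lay under 3 intervals. Differences of so few windows from the share of other promoters are not read as a result about the members. No member promoter was covered in more than 2 of the 5 libraries, and 23 of the 34 were covered in none. Cdkn1a, which encodes the cyclin-dependent kinase inhibitor p21 and is the best known p53 target, had a single interval in the whole set, over both of its starts in MTX 1, with 142 immunoprecipitated and 152 background reads, a fold of 1.00 (0.792 to 1.27) and a deposited adjusted p of 0.502. It had no interval in MTX 2, control 1, control 2 or IgG.

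The intervals over member promoters had a lower median fold than those elsewhere. The 11 KDM6A intervals over a promoter window had a median fold of 1.06 (0.866 to 1.58), and 7 of them had a deposited adjusted p of 0.05 or more. The highest of them, at Mdm4 in MTX 2, had a fold of 1.58. The 181 KDM6A intervals elsewhere in member windows had a median fold of 1.43 (0.752 to 3.97), and 39 of them had an adjusted p of 0.05 or more. Of the 11, control 1 gave 7. Other promoters had lower folds too: their intervals had a median of 1.26 in MTX 1, 1.32 in MTX 2, 1.33 in control 1, 1.26 in control 2 and 1.27 in IgG, against 1.39 to 1.63 for the rest of each list. A lower fold over promoters is thus found across the genome and in IgG.

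**Figure D3:**
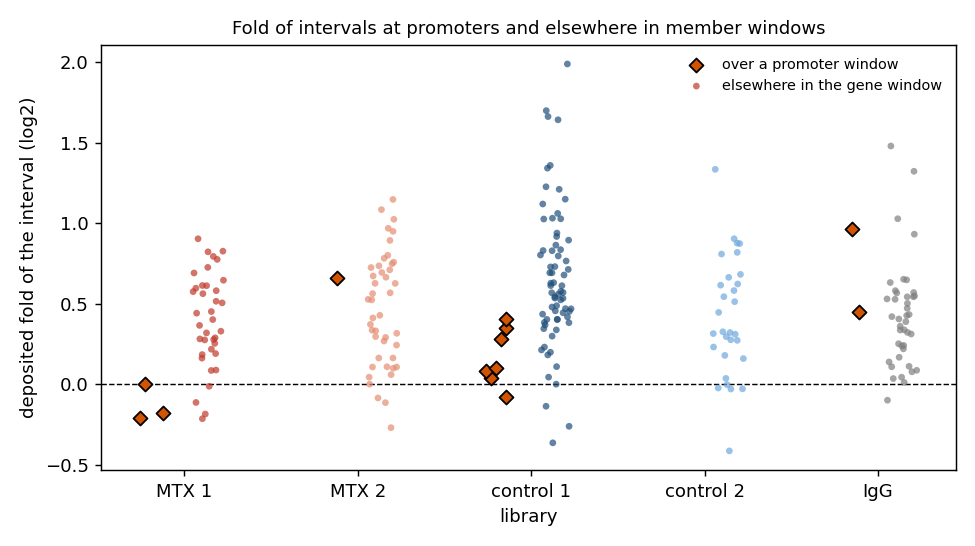
Deposited fold (log2) of each interval in the windows of the 38 genes, by library; diamonds are intervals over a promoter window, circles are intervals elsewhere in the window, and the dashed line marks immunoprecipitated reads equal to scaled background. The promoter intervals of the KDM6A libraries lie between folds of 0.866 and 1.58, in the lower part of the range of the circles.

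Among the damage sensors and checkpoint kinases, Atm, Atr and Rad50 had more KDM6A intervals than any other gene of the list. Of the 8 genes of this group, 4 had an interval in MTX 1 and 6 in MTX 2, against 7 in control 1 and 5 in control 2, and 6 in IgG, where genes of like length would give 3.31, 3.21, 4.66, 2.72 and 2.74. Atm, the kinase activated by double-strand breaks, spans chr9:53437122-53536828. Its window had 6 intervals with 801 immunoprecipitated and 656 background reads in MTX 1, 7 with 878 and 631 in MTX 2, 7 with 690 and 607 in control 1, 6 with 931 and 665 in control 2, and 4 with 539 and 396 in IgG. The scaled read ratios were 1.31, 1.56, 1.504, 1.46 and 1.41, so the MTX and control libraries overlap and IgG lies among them.

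Atr, the kinase that responds to stalled forks, spans chr9:95857597-95953217 and had 9 intervals in MTX 1, 8 in MTX 2, 8 in control 1, 3 in control 2 and 10 in IgG. The reads in them were 1412 and 1051 in MTX 1, 1512 and 1103 in MTX 2, 675 and 528 in control 1, 456 and 388 in control 2, and 1789 and 1336 in IgG, immunoprecipitated reads first. The intervals covered 34.7% and 38.2% of the window in the MTX libraries, 19.7% and 12.9% in the control libraries and 44.7% in IgG. Both MTX libraries had more of the window covered than both control libraries, and the IgG sample, which comes from MTX cells, had the most. Scaled read ratios were 1.44 and 1.54 in MTX, 1.69 and 1.22 in control and 1.39 in IgG, and here the groups overlap.

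Rad50, a subunit of the complex that holds broken DNA ends, had the densest KDM6A intervals and the lowest ratios of these 3 genes. They covered 41.0% and 62.8% of its window in the MTX libraries, 39.2% and 50.6% in the control libraries and 32.0% in IgG. Its scaled read ratios were 1.17 in MTX 1, 1.05 in MTX 2, 1.14 in control 1, 1.101 in control 2 and 1.21 in IgG. Every KDM6A ratio was below that of IgG. Atr and Rad50 weigh heavily in sums over the list: intervals covered 9.67%, 11.8%, 15.2%, 8.23% and 11.6% of all member windows in MTX 1, MTX 2, control 1, control 2 and IgG, and 6.15%, 7.12%, 13.6%, 5.74% and 8.03% without them. For genes of like length to the whole list the coverage was 5.06%, 5.43%, 7.45%, 4.41% and 4.53%. No such value was computed for the list without Atr and Rad50.

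**Figure D4:**
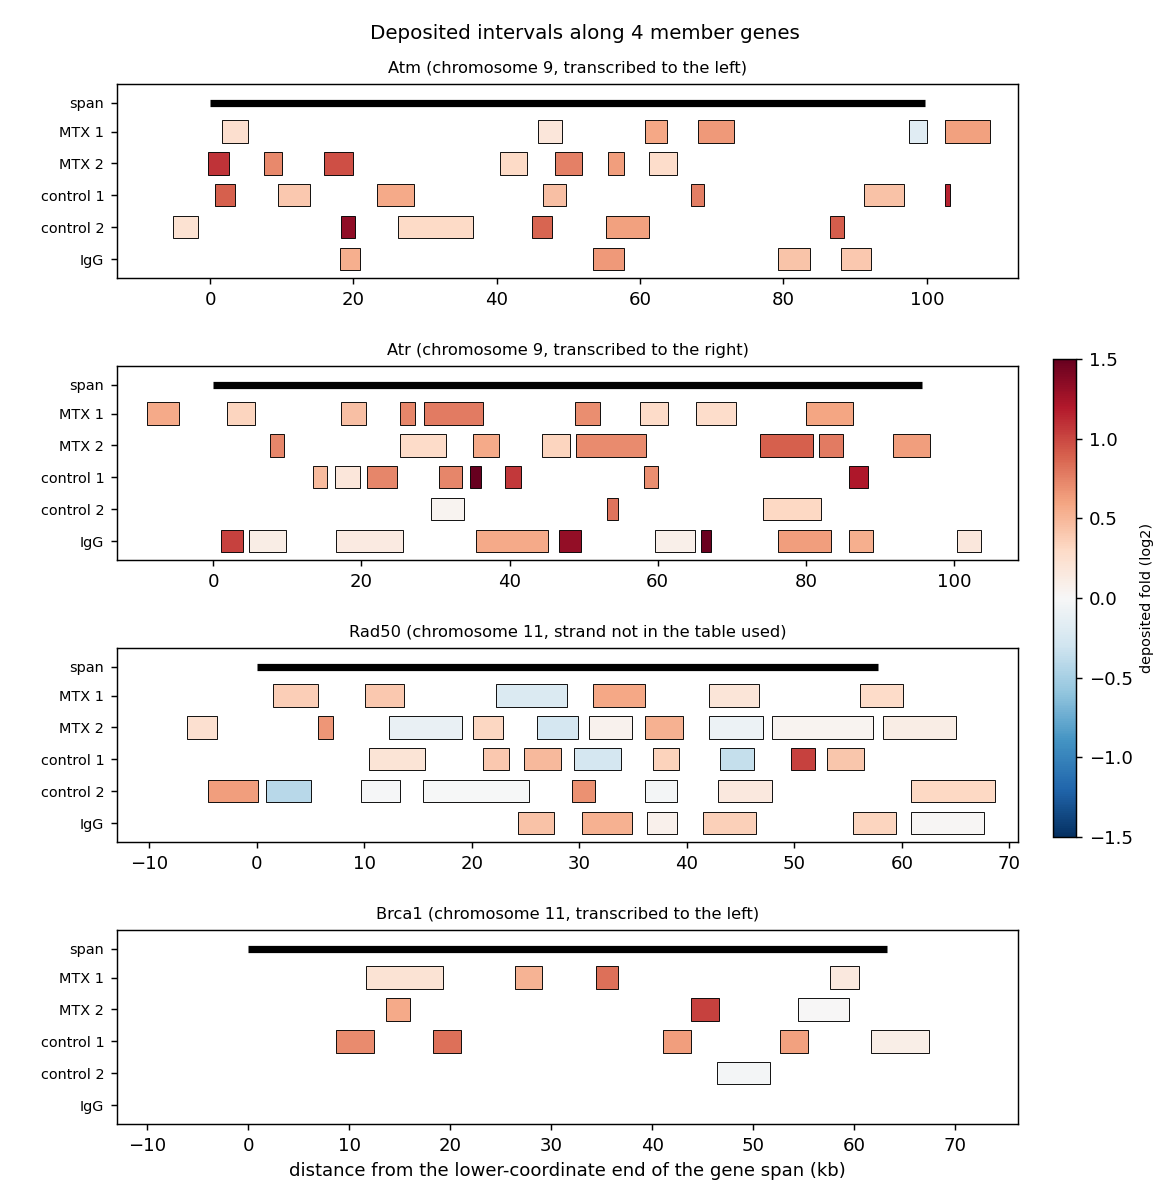
Intervals of each library along Atm, Atr, Rad50 and Brca1, drawn to scale by their distance from the lower-coordinate end of the gene span (black bar), with the deposited fold (log2) as colour. At Atr the IgG sample has 10 intervals and control 2 has 3, and at Brca1 IgG has none.

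The other checkpoint genes had fewer. Chek1, the kinase downstream of ATR, had no interval in MTX 1, highest folds of 1.33 in MTX 2, 3.12 in control 1 and 1.254 in control 2, and 1.44 in IgG. The control 1 interval at Chek1 rests on 59 immunoprecipitated and 25 background reads (95% interval of the fold 1.93 to 5.20). Rad17, which loads the checkpoint clamp, had none in MTX 1 and highest folds of 2.22 in MTX 2, 1.47 in control 1 and 1.498 in control 2, with 1.57 in IgG. Nbn, the partner of RAD50, had 1 interval in MTX 2 (fold 1.59), 3 in control 1 (1.31 to 1.89), none in MTX 1 or control 2, and 1 in IgG (1.497). H2ax, the histone variant phosphorylated around breaks, had 1 interval in MTX 1 with fewer reads than scaled background (fold 0.881) and 2 in control 1 (up to 1.75). Chek2, the kinase downstream of ATM, had none in any library although it spans 34341 bp.

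MTX and control were compared over merged regions. Intervals of the 4 KDM6A libraries were merged where they touched or overlapped, and 2132 merged regions held an interval of all 4. The reads of a region are those of each library's own intervals in it, so the test compares ratios of sums that need not cover the same bases, and says nothing of reads outside them. edgeR's quasi-likelihood test with Benjamini-Hochberg adjustment, with the scaled background reads as offset, called none higher and none lower in MTX cells (0% and 0% of 2132), with 83 at an unadjusted p under 0.05. The counts at an unadjusted p under 0.05 were 70 by limma and 52 by DESeq2 with the same offsets, and neither tool called a region after adjustment. At the 38 genes lay 6 of these regions: 2 at Rad50, 1 at Atm and 3 at Atr, of which all but that of Atm overlap an IgG interval, as do 75.1% of the 2132.

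The region in Atm, chr9:53482001-53489000, had 106 immunoprecipitated and 100 background reads in MTX 1, 148 and 98 in MTX 2, 88 and 85 in control 1, and 95 and 54 in control 2. The ratios averaged 1.41 ± 0.393 in MTX and 1.601 ± 0.328 in control (SD, n = 2 each), and the log2 difference of -0.18 (SE 0.35) did not pass edgeR's quasi-likelihood test (adjusted p = 0.99972). No base of this region lay in an interval of all 4 libraries. The bases common to all 4 were 1000 of 13400, 0 of 12600 and 0 of 14600 at the 3 regions in Atr and 1800 of 30000 and 3200 of 29600 at the 2 regions at Rad50, so at every member region the libraries were compared mostly over different bases. At the 3 regions in Atr the ratios were 1.70 and 1.30, 1.39 and 1.64, and 1.51 and 1.81 in MTX 1 and MTX 2, against 2.07 and 1.03, 1.62 and 1.75, and 2.31 and 1.24 in control 1 and control 2, and 1.29, 1.43 and 1.52 in IgG. The MTX and control ranges overlap at each. The 3 regions in Atr had log2 differences, MTX minus control, of -0.02 (SE 0.26), -0.15 (SE 0.27) and -0.02 (SE 0.27), and the 2 at Rad50 had 0.00 (SE 0.15) and -0.14 (SE 0.16). All 6 had an adjusted p of 0.99972 by that test.

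The middle region of Atr, chr9:95906401-95919000, had more summed reads and more covered length in both MTX libraries than in both control libraries. Its reads were 273 and 374 in MTX 1 and MTX 2, and 66 and 74 in control 1 and control 2, with intervals that covered 7200 and 9400 bp in MTX, against 1800 and 1400 bp in control. Per covered kb the reads were 37.9 and 39.8 in MTX, against 36.7 and 52.9 in control, so the groups overlap. Without the background offset, DESeq2 with its size factors gave this region a log2 difference of 2.01 with an adjusted p of 0.0114, and it was the single member region called under any setting that was run.

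**Figure D5:**
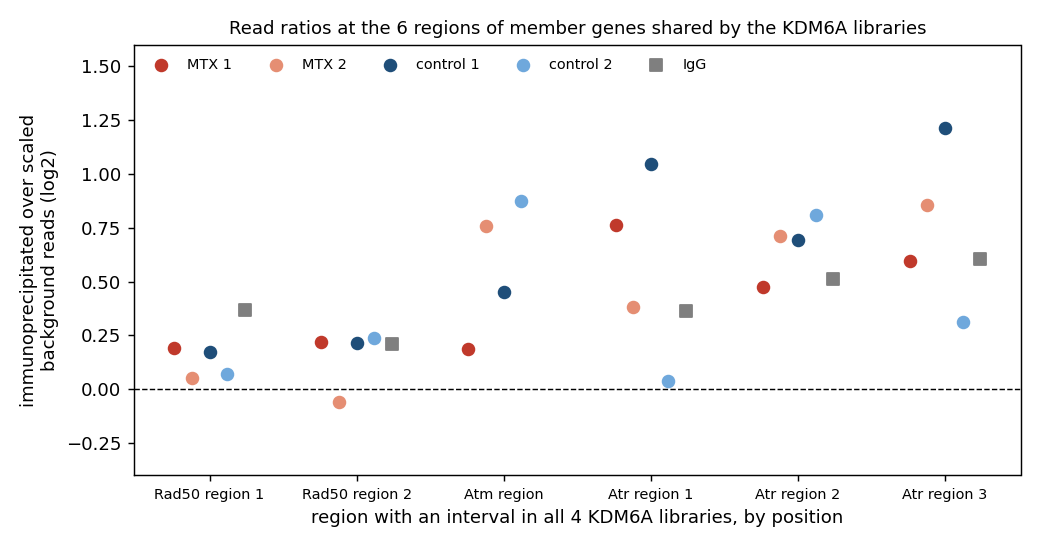
Immunoprecipitated over scaled background reads (log2) at the 6 regions of Rad50, Atm and Atr that have an interval in all 4 KDM6A libraries; circles are KDM6A libraries, squares are IgG, and the dashed line marks equal reads. The ranges of the MTX and control circles overlap at all 6 regions, and the IgG ratios lie between 1.16 and 1.52 at the 5 regions where IgG has an interval.

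Of the 8 repair genes, 4 had an interval in MTX 1 and 4 in MTX 2, against 7 in control 1 and 4 in control 2, and 3 in IgG, where like-length genes would give 3.44, 3.31, 4.83, 2.73 and 2.75. Brca1, which acts in repair of breaks by homologous recombination, spans chr11:101488761-101551955 and had 537 immunoprecipitated and 454 background reads in MTX 1, 354 and 285 in MTX 2, 555 and 528 in control 1, and 146 and 155 in control 2. The scaled ratios were 1.27 and 1.39 in MTX, against 1.39 and 0.981 in control. It was the 1 gene of the list with an interval in all 4 KDM6A libraries and none in IgG, yet no merged region at Brca1 held all 4, although 3 regions each joined intervals of 3 KDM6A libraries. The interval of control 1 over its start had a fold of 1.07 (0.874 to 1.31) and also overlaps Nbr1.

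Brca2, which acts in the same repair pathway as Brca1, spans chr5:150522297-150570147 and had 76 immunoprecipitated and 47 background reads in MTX 1, 207 and 207 in MTX 2, 213 and 154 in control 1, 174 and 145 in control 2, and 391 and 382 in IgG. Scaled ratios were 1.73 and 1.12 in MTX, 1.83 and 1.2504 in control and 1.06 in IgG, and the groups overlap. All 6 intervals of MTX 1, MTX 2 and control 1 at Brca2 overlap an IgG interval. Fancd2, a central protein of interstrand crosslink repair, held the highest fold of the list, 3.97 in control 1 (2.36 to 6.95), on 60 immunoprecipitated and 20 background reads. Its highest folds elsewhere were 1.29 in MTX 2, 1.46 in control 2 and 1.91 in IgG, with no interval in MTX 1.

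Polk, a polymerase that copies past lesions, had 5 intervals in control 1 with folds up to 3.25, against 1 in MTX 1 (1.248), none in MTX 2, 1 in control 2 (1.76) and none in IgG. Parp1, the sensor of strand breaks, had 1 interval each in MTX 1 (0.992), MTX 2 (1.35) and control 1 (1.26), at 3 different positions. Xpc and Ddb2, which recognise ultraviolet lesions, had intervals in control 1 alone of the KDM6A libraries, with highest folds of 1.78 and 1.55, and Xpc also had one in IgG (1.39). Xrcc1, a scaffold of single-strand break repair, had none.

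Of the 10 p53 targets of the cell cycle and stress group, 4 had an interval in MTX 1 and 2 in MTX 2, against 7 in control 1 and 2 in control 2, and 6 in IgG, where genes of like length would give 2.72, 2.32, 4.04, 1.95 and 2.11. Rrm2b, the p53-induced subunit of ribonucleotide reductase, which makes deoxynucleotides, spans chr15:37923952-37961119. It had 95 immunoprecipitated and 84 background reads in MTX 1, 113 and 88 in MTX 2, 186 and 134 in control 1, 143 and 94 in control 2, and 149 and 131 in IgG, for scaled ratios of 1.21 and 1.44 in MTX, 1.84 and 1.59 in control and 1.18 in IgG. Both control ratios were above both MTX ratios, but the control 2 reads are those of a whole interval that reaches only 249 bp into the window. These 249 bp are 0.528% of the window, so the control 2 ratio of 1.59 need not describe it. The 6 KDM6A intervals lie at 6 separate positions. They formed no merged region of all 4 libraries and were not in the test across regions.

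Ccng1, which encodes cyclin G1, had intervals in MTX 1 (fold 1.77), control 1 (1.37 and 1.22) and IgG (1.251 and 1.95), all 3 of the KDM6A intervals overlapping IgG, and none in MTX 2 or control 2. The sestrins, stress-induced inhibitors of growth signalling, split by library: Sesn1 had highest folds of 1.74 in MTX 2, 2.04 in control 1 and 1.31 in IgG, and Sesn2 had 1.87 in MTX 1, 1.06 in control 1 and 1.24 in IgG, with no interval in the libraries not named. The growth-arrest gene Gadd45a and the stress-responsive kinase genes Plk2 and Plk3 had KDM6A intervals in control 1 alone, with highest folds of 1.601, 2.04 and 2.57, the last on 64 immunoprecipitated and 33 background reads. Gadd45a also had an IgG interval (1.03). Zmat3, an RNA-binding p53 target, had 1 interval in control 2 (1.84) and 1 in IgG (1.08). Btg2, an antiproliferative p53 target, had no interval.

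Of the cell death targets, 6 of 9 had no interval in any library, and no like-length share was computed for that count. Among other protein-coding genes 54.2% had none at spans under 10 kb, 38.2% at 10 to 30 kb and 15.3% over 30 kb. Bbc3, Pmaip1, Bax and Phlda3 span less than 10 kb. Of the 9 genes, 1 had an interval in MTX 1 and 1 in MTX 2, against 3 in control 1 and 1 in control 2, and 1 in IgG, where genes of like length would give 2.20, 1.75, 3.39, 1.44 and 1.61. The genes without one were Bbc3 and Pmaip1, which encode the BH3-only proteins PUMA and NOXA, the pore-forming Bax, the death receptor Fas, the nuclease gene Aen and Phlda3, an inhibitor of AKT. Trp53inp1, a p53 cofactor in stress responses, had folds of 1.93 in MTX 2, up to 1.82 in control 1 and 1.13 in control 2 at overlapping positions, and no interval in MTX 1 or IgG. Ei24 had intervals in MTX 1 (1.42), control 1 (up to 1.17) and IgG (1.46), and Perp, a membrane protein of p53-dependent death, had 1 in control 1 (1.35). In all, 9 of the 38 genes, or 23.7%, had no interval in any of the 5 lists, against 36.1% of all other protein-coding genes and 34.4% of those of like length.

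Fewer genes had an interval at an end. Within 1 kb of an end, 10 of the 38 genes had an interval in MTX 1 and 5 in MTX 2, against 14 in control 1 and 4 in control 2, and 8 in IgG. Other protein-coding genes had 13.4%, 9.26%, 20.1%, 7.72% and 10.4% in that order of libraries. No member had one in all 4 KDM6A libraries (0.975% of other genes did), none in both MTX libraries alone (0.755%), none in both control libraries alone (1.09%), and 14 had none in any list (62% of other genes). Trp53, Atm and Rad50 had one in 3 KDM6A libraries. For genes whose strand was known, the end at the start of transcription was covered at Atm, Ccng1, Cdkn1a, Parp1 and Trp53 in MTX 1 and at no gene in MTX 2, against Brca1, Ccng1, Polk, Sesn1, Sesn2 and Trp53 in control 1 and no gene in control 2, and Ccng1, Mdm2 and Trp53 in IgG. The interval of MTX 2 over a start of Mdm4 is not among these, since that start lies inside the span.

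Per library, 15 ± 0 of the 38 genes had an interval in MTX cells and 20 ± 9.90 in control cells (SD, n = 2 each). The difference of -5 gave p = 1 in a two-sided exact permutation test, and the smallest p that 2 against 2 libraries allow is 0.3333. Without control 1 the difference was 2, so its sign rests on that library.

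IgG intervals overlapped many of these intervals. Of the member intervals, 17 of 40 in MTX 1 (42.5%) and 19 of 45 in MTX 2 (42.2%) overlapped an IgG interval, against 23 of 77 in control 1 (29.9%) and 12 of 30 in control 2 (40.0%). Over the whole lists the shares were 24.9%, 23.2%, 18.4% and 25.6%. Without Atr and Rad50, a choice made after their values were seen, 20% of member intervals overlapped IgG in MTX 1, 22.2% in MTX 2, 19.7% in control 1 and 31.6% in control 2. The median fold of member intervals was below that of its own list in every library: 1.27 against 1.43 in MTX 1, 1.44 against 1.499 in MTX 2, 1.46 against 1.62 in control 1, 1.252 against 1.39 in control 2, and 1.34 against 1.49 in IgG.

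Chromosome 11, which carries Trp53, Ccng1, Brca1 and Rad50, had a high share of intervals in all lists. All 4 genes had an interval in MTX 1, 3 in MTX 2, 4 in control 1, 2 in control 2 and 3 in IgG, while of the other genes of that chromosome 62.7%, 57.1%, 70.2%, 58.5% and 52.5% had one. Of the 34 members elsewhere 11, 12, 23, 11 and 16 had an interval, against 31.1%, 28.7%, 45.2%, 23.5% and 25.5% of other genes elsewhere. The part of chromosome 11 and of background in the results at these genes was not tested further.

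A second list of 97 other genes of the pathway, all of which matched RefSeq names, was looked at in the same way. An interval was found at 44 in MTX 1 and 36 in MTX 2, against 61 in control 1 and 38 in control 2, and at 36 in IgG, where genes of like length would give 35.9, 33.1, 50.4, 27.9 and 28.9. In all 4 KDM6A libraries 19 had one, against 14.3 for like length, 2 (Rps27l and Rad52) had the pattern of Mdm2, against 2.27, none had the reverse, against 1.29, and 20 had none in any list, against 30.9. The 25 further p53 targets, with a median span of 14947 bp, had intervals at 6 and 4 genes in the MTX libraries, 10 and 3 in the control libraries and 5 in IgG, where like length would give 6.96, 6.08, 10.3, 5.04 and 5.40. The 19 break repair genes, with a median span of 50151 bp, had them at 11 and 9 in MTX, 13 and 12 in control and 9 in IgG, where like length would give 8.81, 8.44, 11.8, 7.28 and 7.43. Of genes with an interval in all 4 KDM6A libraries and none overlapping IgG, Fancc, of the Fanconi core complex, ranked first, with folds of its top-ranked interval of 1.73 and 2.30 in MTX and 3.31 and 1.80 in control. Fancm, a DNA translocase of the same pathway, had 1.34 and 1.68 in MTX and 2.78 and 1.65 in control, and Topbp1, an activator of ATR, had 1.37 and 1.79 in MTX and 1.42 and 1.26 in control. Apaf1, the core of the apoptosome, had 1.12 and 2.26 in MTX and 2.10 and 1.97 in control.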

How the data were processed

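KDM6A ChIP-seq of 2 MTX and 2 control samples and IgG ChIP-seq of 1 MTX sample were analysed from 5 interval lists; inputs have none. The submitters' processing notes name Bowtie2 and the build mm10. For the interval caller, no name is given in the sources used here. The authors deposited, per interval, whole counts of immunoprecipitated and background reads, p-values and adjusted p-values, and a fold, which equals the ratio of the counts times 1 constant per list. The lists have no header, so these meanings were worked out from the values, and which sample gave the background reads is not stated.

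Coordinates were converted to 1-based. Gene spans came from a RefSeq table of GRCm38.p6 without exons, so introns, exons and UTRs are not told apart. The 38 genes, the roles and the second list were chosen with earlier results of these data known. Values in every library are given for members with an interval in all 4 KDM6A libraries, in both libraries of 1 group only or with a gene-end interval in 3 or more, and for Trp53, Cdkn1a and Mdm2; other members by counts and highest fold. Genes of the second list are named when in all 4 KDM6A libraries with no IgG overlap, by worst rank of the best interval. One gene that this rule names is not reported here.

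Merged regions with intervals in all 4 KDM6A libraries (2132) were tested with edgeR 4.0.16 (R 4.3.3) by quasi-likelihood, offset by background reads scaled to depth, with adjustment over all regions at a threshold of 0.05; limma 3.58.1 and DESeq2 1.42.0 were alternatives. The test was checked on simulated counts. Samples were not paired by the replicate numbers in their titles, since the labels name no pairing. Fold intervals are exact binomial at 95% and, with reads that carry no molecular identifiers, cover counting error only. Motifs were searched in RefSeq promoters; 11 members have none in that table.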

Additional observations from a re-analysis of the deposited data

How the results depend on the processing

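The count of members with an interval in all 4 KDM6A libraries (6) was 0 at gene ends and 2 with the better 50% of each list. It was 5 without the flank, 5 with at least 50% of the interval in the window and 5 with lists of equal length. It was 4 with adjusted p under 0.05 and fold above 1, and 4 without intervals that overlap IgG. With 1 library left out it ranged from 6 to 10 (10 without MTX 1). The count in both control libraries alone (1) was 0 at gene ends, 3 with the better 50%, and 2 to 7 with 1 library left out (7 without control 2). The count in both MTX libraries alone (0) was 1 with the better 50% and 1 with lists of equal length, and 0 to 3 with 1 library left out (3 without control 1). When a library is left out, fewer libraries have to meet the rule, so each of these counts can only stay or rise. No share over other genes was computed for these counts with a library left out. The IgG count (19) was 8 at gene ends and 8 with the better 50%. The mean difference in members, MTX minus control, ranged from -12 to 2 with 1 library left out. The mean excess over genes of like length (11.8 points) ranged from 8.17 to 13.7 with 1 library left out and was 8.21 on the same chromosome. The 0 regions called became 16 (8 higher, 8 lower) with DESeq2 size factors and no background offset, 1 with the replicate block, and 0 to 3 with 1 library left out (3 without control 2). The labels name no pairing, so the block rests on a number alone. Deviations of the same-numbered libraries from their group means had a correlation of 0.00468 over 2132 regions. The libraries need not cover the same bases of a region, so this value cannot exclude a pairing.

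Of 61 other fits of the 6 member regions 22 changed sign and 1 passed the threshold. Without background offset and with TMM, the log2 differences were -0.010 and 0.64 at Rad50, 0.26 at Atm and 1.01, 1.99 and 0.80 at Atr, by position; with DESeq2 size factors the second at Rad50 was 0.65, Atm 0.27 and Atr 1.02, 2.01 and 0.81. The first Atr region was 0.030 with limma and 0.026 with the replicate block, and the last 0.0033 with the block. With 1 library left out the ranges were -0.069 to 0.072 and -0.29 to -0.01 at Rad50, -0.49 to 0.084 at Atm, and -0.47 to 0.54, -0.28 to -0.04 and -0.48 to 0.42 at Atr. The cause of these changes was not tested. Without Atr and Rad50, added after seeing the data, the mean share of member intervals that overlap IgG was 23.4%, against 38.6%, and mean coverage 8.16%, against 11.2%.

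Median intervals of 79 to 130 reads, 2 libraries a group and 1 IgG sample limit the precision, and reads outside the intervals were not analysed here.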
